A study of Mus musculus with 23 samples.

Results

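Brown adipose tissue (BAT) makes heat by burning fatty acids, and it also makes triglyceride, the neutral fat of the lipid droplet, in the same cells. The expression of 9 enzymes that make triglyceride or handle its precursor, glycerol 3-phosphate, was examined in BAT of mice. The mice were kept at room temperature (RT) or at 4°C, with and without the mitochondrial calcium uniporter gene Mcu. The 9 genes were taken by symbol from 14651 genes with values. Gk, Pck1, Gpd1 and Gpd2 supply or handle glycerol 3-phosphate, and Gpam, Agpat2, Lpin1, Dgat1 and Dgat2 build triglyceride on it. All 9 were found, and none was dropped by a filter on low values. RNA-seq had been run on whole BAT of 23 male mice of 8 to 12 weeks on a C57BL/6 background, housed for 6 h under the stated condition, 1 library per mouse. The groups were control mice at RT (n = 6), control mice at 4°C (n = 5), BAT-Mcu-KO mice at RT (n = 6) and BAT-Mcu-KO mice at 4°C (n = 6).

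Every mouse, controls included, carried Mcu alleles with loxP sites (Mcu fl/fl). BAT-Mcu-KO mice also carried Ucp1-Cre, a recombinase driven by the promoter of the brown adipocyte gene Ucp1. Cells of BAT without Ucp1 promoter activity therefore keep Mcu. Control mice lacked Ucp1-Cre, so that loss of Mcu and the transgene itself cannot be told apart in any comparison of genotypes. Mice at 4°C were housed singly, without bedding and, as a rule, without food. Whether the sequenced mice at RT had food during the 6 h is not stated, so that cold and a difference in food cannot be told apart here. Because whole tissue was sequenced, a change in the number of cells of one type and a change in RNA per cell cannot be told apart either.

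Values are normalized counts, that is, the reads of a gene divided by a size factor of its library, and libraries held 7129271 to 21006347 reads in genes. Mcu was lower in BAT-Mcu-KO mice at RT (log2 fold change −1.66 ± 0.22 (SE), adjusted p = 0.001, limma) and at 4°C (−1.61 ± 0.23, adjusted p = 0.00367). All 9 brown adipocyte markers had values, with sums of 124700 to 179100 at RT and 228200 to 278600 at 4°C, of which Ucp1 itself made up the most (means of 63858 and 165200 normalized counts in control mice), and Cidea had 49560 and 39298, Cox8b 18469 and 12715. The 6 markers of any adipocyte, all with values, summed to 100700 to 146600 at RT and 89240 to 110100 at 4°C. This sum holds genes that were themselves called with cold in control mice. Lipe (log2 −1.62) and Cidec (−0.52) were lower, and Plin1 (0.47) and Pparg (0.51) higher. The summed 8 skeletal muscle markers, all with values, ranged from 277.5 to 45580 among mice, with group medians of 2251 (control RT), 11330 (control 4°C), 18540 (BAT-Mcu-KO RT) and 3575 (BAT-Mcu-KO 4°C). The 5 endothelial markers, all with values, summed to 2713 to 4107 at RT and 4508 to 7626 at 4°C. In control mice Pecam1 had means of 1211 and 2335 normalized counts and Kdr 1024 and 2233, but Cdh5 had 517.4 and 659.4, Tek 474.4 and 471.6, and Emcn 331.5 and 246.5, and in BAT-Mcu-KO mice these last 3 lay within 1 SD of their RT means. The macrophage sum was 386.1 to 782.6 at RT and 654.5 to 1046 at 4°C, and the fibroblast sum 3405 to 6628 and 4153 to 7767. Of 5 white adipocyte markers only Lep and Nnat had values, and their sum was 126.7 to 673 at RT and 42.72 to 113.9 at 4°C. Only 1 of 5 lymphocyte markers, Cd79a, had values, between 0 and 17.93.

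Triglyceride is built on glycerol 3-phosphate. In most fat cells this is made from the glycolytic intermediate dihydroxyacetone phosphate by Gpd1, or from pyruvate by glyceroneogenesis, whose characteristic enzyme is the cytosolic phosphoenolpyruvate carboxykinase Pck1, while glycerol kinase, encoded by Gk, phosphorylates free glycerol and so returns the glycerol of broken-down fat to synthesis. Acyl groups are then added by a glycerol 3-phosphate acyltransferase (Gpam) and a lysophosphatidate acyltransferase (Agpat2), the phosphate is removed by lipin 1 (Lpin1), and the last acyl group is added by Dgat1 or Dgat2, which are unrelated in sequence.

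Promoter sequences of 6 of the 9 genes, 8 start sites in all, were found in RefSeq for the build GRCm38.p6. Gpd1, Dgat1 and Dgat2 were not matched. Printed below are those of Gk and Gpam, which were higher at 4°C, and of Pck1, which was lower. Each runs from 150 bases before the start site to 10 bases from it onward. Matched but not printed were those of Agpat2, Gpd2 and Lpin1. The windows lie at chrX:85776810-85776969 (minus strand) for Gk, chr2:173152923-173153082 (plus strand) for Pck1, and chr19:55127229-55127388 and chr19:55099468-55099627 (minus strand) for the upstream and downstream start of Gpam. Capitals mark TGACG, the core of the cAMP response element, on either strand (CGTCA when read from the opposite one) and CACGTG, an E-box.
Gk: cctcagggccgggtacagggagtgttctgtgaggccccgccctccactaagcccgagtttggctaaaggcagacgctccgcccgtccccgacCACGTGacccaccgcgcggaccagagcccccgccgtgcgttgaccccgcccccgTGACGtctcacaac
Pck1: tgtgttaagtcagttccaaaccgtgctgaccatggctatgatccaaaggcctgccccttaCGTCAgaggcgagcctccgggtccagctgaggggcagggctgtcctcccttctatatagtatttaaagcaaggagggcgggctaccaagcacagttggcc
Gpam, upstream start: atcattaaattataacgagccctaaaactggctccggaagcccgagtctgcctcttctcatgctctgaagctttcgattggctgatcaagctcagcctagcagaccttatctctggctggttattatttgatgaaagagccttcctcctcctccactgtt
Gpam, downstream start: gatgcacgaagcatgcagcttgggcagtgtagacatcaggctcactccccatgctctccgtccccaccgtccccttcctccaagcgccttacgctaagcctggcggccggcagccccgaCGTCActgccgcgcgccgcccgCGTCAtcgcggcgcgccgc

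Counting the start site as +1 and the base before it as −1, Gk held TGACG from -4 and CACGTG from -58, Pck1 held CGTCA from -90, and the downstream start of Gpam held CGTCA from -31 and from -9. The search covered both strands of 250 bases before to 50 bases after each start. TGACG was in 3 of the 8 promoters, all among those printed, and in 20.8% of 32851 promoters of that length. CACGTG was in 1 and in 7.15%, and AGGTCA, the core of nuclear receptor sites, in 2 and in 16.3%. AGGTCA was found from -74 in Lpin1 and from -196 at the downstream start of Gpam, outside the stretch printed. Neither the full TGACGTCA, in 1.79% of all promoters, nor the direct repeat of AGGTCA with 1 base between the copies, in 0.0396%, was among the 8. These matches say only which letters stand in the windows.

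After 6 h at 4°C, 7 of the 9 genes were called in control mice and 7 in BAT-Mcu-KO mice, at an adjusted p under 0.05 (limma on log2 of the normalized count + 1, Benjamini-Hochberg over all 14651 genes). Gk, Gpam and Dgat1 rose, Dgat2, Pck1, Agpat2 and Lpin1 fell, and Gpd1 and Gpd2 were not called, in both genotypes. Cold called 46.0% of all genes in control mice (22.3% higher, 23.7% lower) and 43.3% in BAT-Mcu-KO mice (21.4% and 21.9%), so that calls by themselves were common. The sizes differed more: Gk ranked 65 among the 14651 log2 fold changes from the highest down in control mice and 69 in BAT-Mcu-KO mice, and Dgat2 ranked 94 and 65 from the lowest up. The genotype did not pass the test for any of the 9 at either temperature. The 9 genes together took 1.34% to 1.74% of a library's reads at RT and 0.959% to 1.34% at 4°C.

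**Figure D1:**
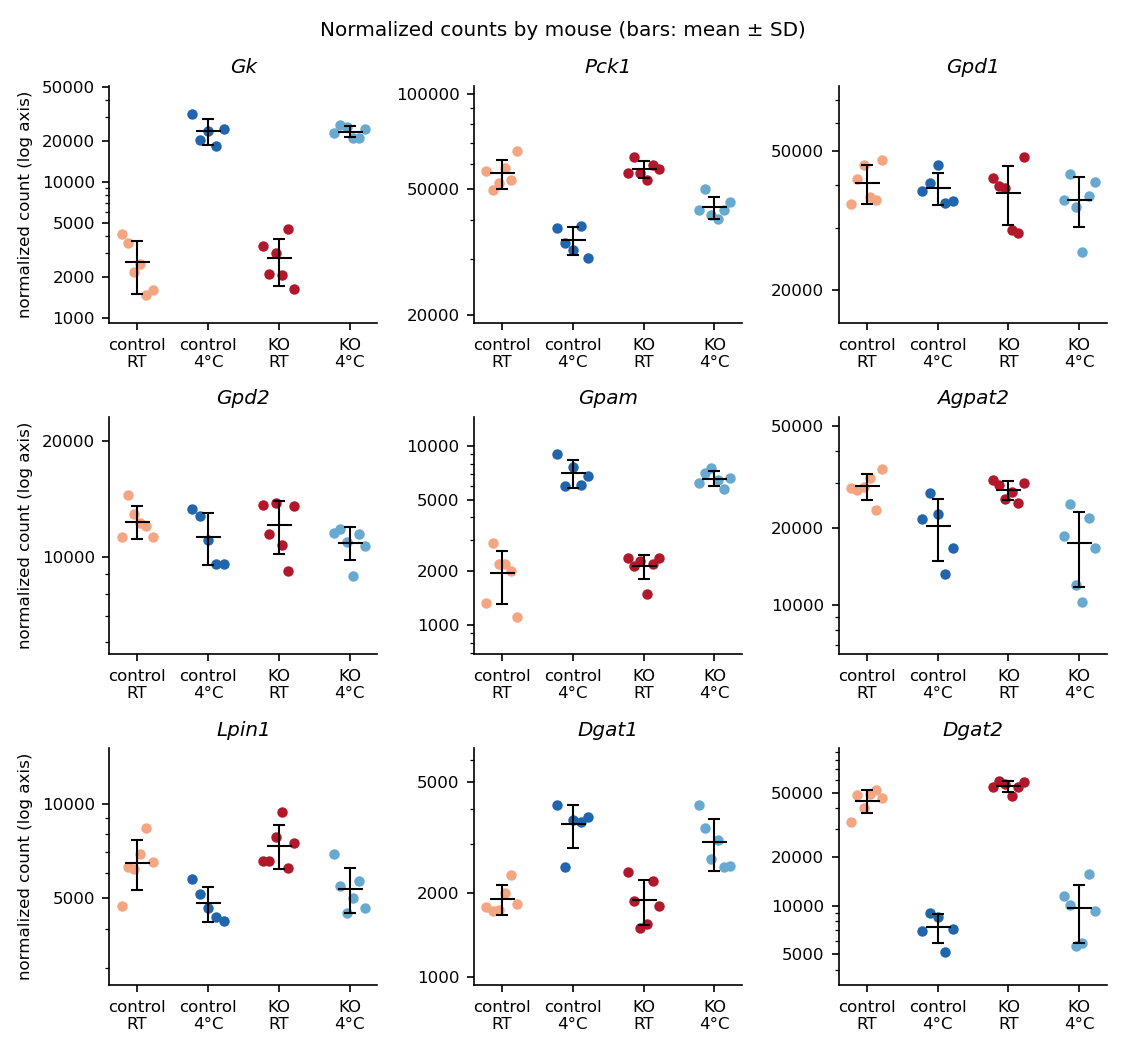
Normalized counts (log axis) of the 9 enzymes in each of the 23 mice, by group; KO is BAT-Mcu-KO, points are mice, and bars are the mean ± SD. Gk, Gpam and Dgat1 lie higher at 4°C and Dgat2 lies lower in both genotypes without overlap, while Gpd1 and Gpd2 overlap between the temperatures.

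Gk, on the X chromosome (chrX:85701937-85776819, minus strand, GRCm38), showed the largest rise of the 9. In control mice its normalized count was 1463 to 4147 at RT (median 2312) and 31551, 20410, 23696, 18308 and 24457 in the 5 mice at 4°C. BAT-Mcu-KO values were 1640 to 4476 at RT (median 2533) and 20859 to 26158 at 4°C (median 23439). Even the lowest mouse at 4°C lay above the highest at RT by several fold in each genotype. The log2 fold change was 3.29 ± 0.24 in control mice (9.77-fold, adjusted p = 4.01e-11) and 3.16 ± 0.22 in BAT-Mcu-KO mice (8.92-fold, adjusted p = 3.43e-11). Mice within a group differed more at RT (coefficient of variation 41.9% for control and 38.1% for BAT-Mcu-KO mice) than at 4°C (21.3% and 9.38%). The exons of Gk overlap those of Gm14764, which had at most 42.48 normalized counts in any mouse. Of its relatives, Gk5 had 50.52 to 137.2 normalized counts over all mice, and Gk2 and Gykl1 had no values to set beside it.

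Pck1 (chr2:173153048-173159273) was the highest of the 9 per kb of exon in control mice at RT and fell in the cold. In control mice it went from 49507 to 66038 (median 54980) at RT to 37577, 33809, 32118, 38250 and 30185 at 4°C. The BAT-Mcu-KO range moved from 53331 to 63039 (median 57016) at RT to 40078 to 49976 (median 42841) in the cold. No mouse at 4°C reached the lowest mouse at RT of its genotype. The fall was −0.70 ± 0.09 on the log2 scale in control mice (adjusted p = 6.09e-07) and −0.40 ± 0.09 in BAT-Mcu-KO mice (adjusted p = 0.000491).

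At 4°C every BAT-Mcu-KO mouse had more Pck1 than every control mouse, 43763 ± 3512 against 34388 ± 3473 normalized counts (mean ± SD). The log2 difference was 0.35 ± 0.09, with a 95% interval of 0.16 to 0.54, and the adjusted p was 0.278 in limma. A higher group without overlap occurred in 0.389% of all genes in that comparison, and 0.0751% were called in either direction. DESeq2, run on the recovered reads, put the same difference at 0.35 with an adjusted p of 0.026, and the adjusted p ranged from 0.026 to 0.597 over the alternatives. The test of whether the cold response of Pck1 differed between genotypes gave 0.30 ± 0.12 (log2, unadjusted p = 0.0228, adjusted p = 0.801). At RT the genotypes differed by 0.05 ± 0.09 in Pck1. Skeletal muscle markers summed to 277.5 to 33500 in the control and 338.7 to 8984 in the BAT-Mcu-KO mice at 4°C, and with that sum as a covariate the genotype still called none of the 9 genes there.

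The glycerol 3-phosphate dehydrogenases stayed close to their RT levels. Gpd1, the cytosolic enzyme (chr15:99717515-99725005), had 35089 to 47139 normalized counts in control mice at RT and 38343, 40331, 45368, 35525 and 35861 at 4°C. The BAT-Mcu-KO groups had 29083 to 47895 at RT and 25670 to 42773 in the cold. All 4 ranges overlapped. The log2 difference between temperatures was −0.04 (95% interval −0.32 to 0.23, adjusted p = 0.822) in control mice and −0.06 (−0.33 to 0.20, adjusted p = 0.727) in BAT-Mcu-KO mice, and its sign turned in both under quantile normalization. Gpd2, the mitochondrial enzyme of the glycerol phosphate shuttle (chr2:57237635-57370719), had 9167 to 14472 normalized counts in the RT mice of both genotypes and 8928 to 13290 in the cold-exposed mice. Its log2 difference was −0.14 in control (−0.37 to 0.09, adjusted p = 0.32) and −0.14 in BAT-Mcu-KO mice (−0.36 to 0.08, adjusted p = 0.31). Changes in either gene of the size seen for Gk or Dgat2 lay outside these intervals. Exons of Gpd1 overlap Gm16537 and those of Gpd2 overlap A930012O16Rik, which had at most 48.62 normalized counts.

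Gpam, the mitochondrial acyltransferase of the first acylation step (chr19:55067268-55127238), had 1105 to 2869 normalized counts (median 2106) in control mice at RT and 9094, 6028, 7617, 6051 and 6802 at 4°C. With Mcu deleted it had 1487 to 2384 (median 2245) at RT and 5732 to 7522 (median 6543) at 4°C. The temperatures did not overlap in either genotype. Gpam rose by 1.92 ± 0.18 on the log2 scale in control mice (3.78-fold, adjusted p = 2.62e-09) and by 1.63 ± 0.17 in BAT-Mcu-KO mice (3.1-fold, adjusted p = 1.93e-08). It ranked 284 and 357 among all genes from the highest rise down.

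Agpat2, which carries out the second acylation and whose human counterpart is mutated in a form of generalized lipodystrophy (chr2:26593057-26604417), fell. In control mice it went from 23608 to 33984 (median 28897) at RT to 21838, 27571, 22671, 13308 and 16831 at 4°C, and the ranges overlapped. The BAT-Mcu-KO range moved from 25007 to 30849 (median 28604) to 10343 to 24882 (median 17742), without overlap. The log2 fold change was −0.55 ± 0.18 (adjusted p = 0.0163) and −0.75 ± 0.18 (adjusted p = 0.00106). Without control 4°C replicate 4, the lowest of its group, the value in control mice was −0.41 with an adjusted p of 0.0739. Exons of Agpat2 overlap those of Egfl7, an endothelial gene on the other strand with 687.2 to 1524 normalized counts, and reads were counted irrespective of strand, so reads in the shared stretch are uncertain.

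Lpin1, the phosphatidate phosphatase lipin 1 (chr12:16535669-16610966), fell by a similar, smaller amount in both genotypes. Control mice had 4723 to 8368 normalized counts (median 6388) at RT and 5743, 5151, 4653, 4372 and 4237 at 4°C. BAT-Mcu-KO mice had 6246 to 9397 (median 7054) and 4480 to 6919 (median 5230). The ranges overlapped in both genotypes. The log2 fold change was −0.42 ± 0.13 (adjusted p = 0.0103) and −0.46 ± 0.12 (adjusted p = 0.00396).

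The final enzymes moved in opposite directions. Dgat1 (chr15:76502015-76511953) had 1725 to 2334 normalized counts (median 1808) in control mice at RT and 4139, 2478, 3662, 3612 and 3772 at 4°C. BAT-Mcu-KO mice had 1497 to 2382 (median 1839) at RT and 2485 to 4156 (median 2877) at 4°C. Neither genotype showed an overlap between the temperatures. Dgat1 rose by 0.88 ± 0.14 on the log2 scale (1.84-fold, adjusted p = 1.73e-05) in control and by 0.69 ± 0.14 (1.61-fold, adjusted p = 0.000201) in BAT-Mcu-KO mice. The endothelial marker sum was higher at 4°C without overlap as well, through Pecam1 and Kdr and not Tek or Emcn, and its part in the rise of Dgat1 was not tested.

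Dgat2 (chr7:99153658-99182719) had 32840 to 51664 normalized counts (median 47378) in control mice at RT and 6924, 9046, 8543, 5142 and 7105 at 4°C. BAT-Mcu-KO mice had 47563 to 59232 (median 55586) at RT and 5621 to 15785 (median 9626) at 4°C. The highest mouse at 4°C stayed far below the lowest at RT. Dgat2 was 6.13-fold lower in control mice (log2 −2.62 ± 0.20, adjusted p = 7.37e-11) and 6.06-fold lower in BAT-Mcu-KO mice (−2.60 ± 0.19, adjusted p = 3.59e-11). In control mice 3 of the 9 genes were higher and 2 lower without overlap, where 13.0% and 12.3% of all genes were. In BAT-Mcu-KO mice 3 were higher and 3 lower without overlap, where 12.4% and 11.9% of all genes were.

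**Figure D2:**
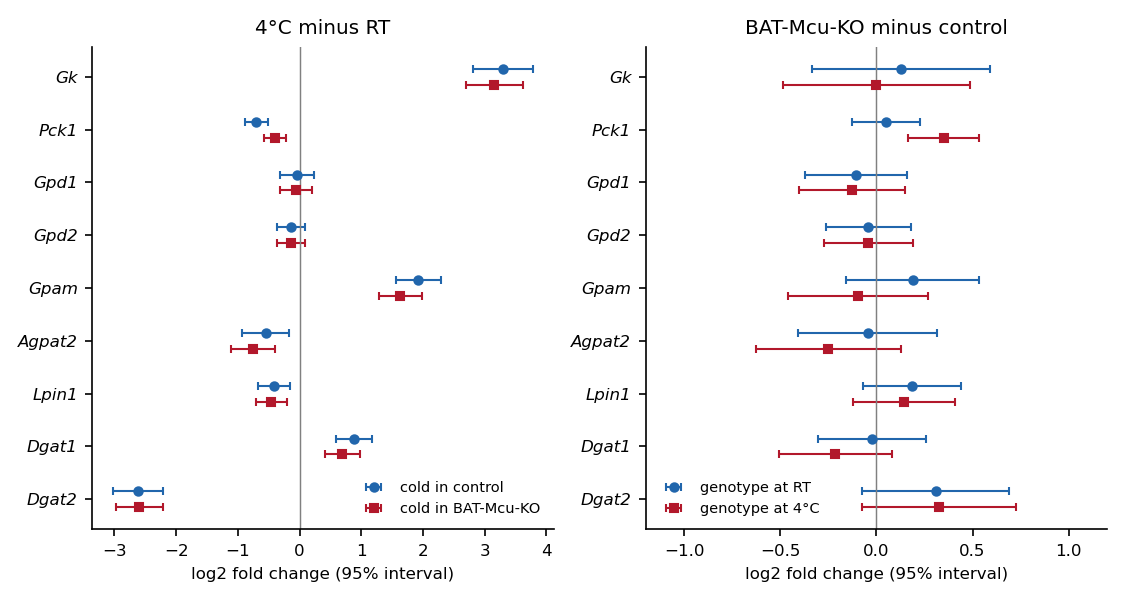
Log2 fold changes of the 9 enzymes with 95% intervals, for cold in each genotype (left) and for BAT-Mcu-KO against control mice at each temperature (right, on a narrower axis). The cold changes lie from −2.62 for Dgat2 to 3.29 for Gk, and the genotype differences lie between −0.25 and 0.35.

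The genotype was compared at each temperature. At RT the log2 differences between BAT-Mcu-KO and control mice lay between −0.11 for Gpd1 and 0.31 for Dgat2, with 0 of 9 called and a smallest adjusted p of 0.959, where 0.0478% of all genes were called. DESeq2 and edgeR called 0 of the 9 as well, and 0 had an unadjusted p under 0.05, which 5.15% of all genes had. The median of the 9 was 0.05, against 0.0008 for all genes. At 4°C the differences lay between −0.25 for Agpat2 and 0.35 for Pck1, with 0 of 9 called in limma, 0 in edgeR and 1, Pck1, in DESeq2. Of all genes, limma called 0.0751% there. DESeq2 called 11 genes higher and 12 lower, and edgeR 2 and 4. Pck1 was also the only one of the 9 with an unadjusted p under 0.05 in limma, which 6.98% of all genes had. Dgat2 was 0.31 ± 0.19 higher at RT (95% interval −0.07 to 0.69) and 0.33 ± 0.20 higher at 4°C (−0.07 to 0.73, adjusted p = 0.785), with overlapping groups in both. For Gk at 4°C the difference was 0.00 with an interval of −0.49 to 0.48, so a difference in either direction within that interval could not be told from 0. The test of a different cold response by genotype called 0 of the 9 genes and 0 genes of all 14651, of which 5.99% had an unadjusted p under 0.05, DESeq2 calling 28 and edgeR 0. Among the 9 only Pck1 had an unadjusted p under 0.05 in it, and the values ran from −0.29 for Gpam to 0.30 for Pck1.

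Divided by the length of their exons (normalized counts per kb), the 9 genes fell into an abundant and a scarce set at RT. By 6 h at 4°C, control mice had Dgat2 below the abundant set. Gk, Gpam and Dgat1 then stood higher and Lpin1 lower than at RT. In control mice at RT, Pck1 stood highest (16320 ± 1700 per kb, mean ± SD), followed by Dgat2 (14520 ± 2290), Agpat2 (13690 ± 1620) and Gpd1 (13630 ± 1750), neighbours whose ranges overlapped. Gpd2 followed at 1886 ± 185 per kb, apart from both sides. Lpin1 (672 ± 122) overlapped Dgat1 (623.3 ± 76.4), and Gk (330.8 ± 138) overlapped Gpam (293.2 ± 96.6), the lowest. In control mice at 4°C, Gpd1 stood first (13200 ± 1360 per kb), above Pck1 (10030 ± 1010) without overlap but overlapping Agpat2 (9598 ± 2590), and Gk had moved to the fourth place (3059 ± 652), its range overlapping that of Dgat2 (2385 ± 498), which in turn overlapped Gpd2 (1720 ± 266). Then came Dgat1 (1156 ± 204), Gpam (1068 ± 192) and Lpin1 (499.9 ± 63.9), of which Dgat1 and Gpam overlapped. In BAT-Mcu-KO mice Dgat2 led at RT (17840 ± 1340 per kb) and Pck1 at 4°C (12760 ± 1020). The order depended on the length used, within the abundant set and below it. Per kb of coding sequence Gpd1 stood first in control mice at RT, and Gk (1455) stood above Dgat1 (1275). Per kb of the longest transcript Agpat2 stood first in control mice at 4°C.

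Ratios of RNA levels per kb were taken between pairs of genes within each mouse. Dgat2 exceeded Dgat1 by 18.3 to 27.8 times in control mice at RT (mean 23.4 ± 3.21) and by 1.41 to 3.62 times at 4°C (2.17 ± 0.87). In BAT-Mcu-KO mice the ratio was 22.7 to 37.4 (29.6 ± 5.41) and 1.87 to 6.3 (3.25 ± 1.61). Pck1 belongs to glyceroneogenesis, and Gk phosphorylates free glycerol. The ratio of Pck1 to Gk had RT means of 57.6 ± 25.5 (control) and 52.8 ± 19.2 (BAT-Mcu-KO), and 4°C means of 3.4 ± 0.84 and 4.25 ± 0.29. The ratio of Gpd1 to Gk went from 48.1 ± 21 to 4.45 ± 0.90 in control mice. Gpd2 to Gpd1 was 0.14 ± 0.02 in control mice at RT and between 0.13 and 0.15 as a mean in the other groups. Agpat6, the acyltransferase of the endoplasmic reticulum that shares the first step with Gpam, exceeded Gpam by 4.04 ± 1.3 times in control mice at RT and by 1.6 ± 0.08 times at 4°C. Ratios are given as a description, with no test, and their size depends on the length used. Per kb of coding sequence, Pck1 and Gk had means of 30000 and 1455 in control mice at RT. At 4°C these means were 18430 and 13450.

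**Figure D3:**
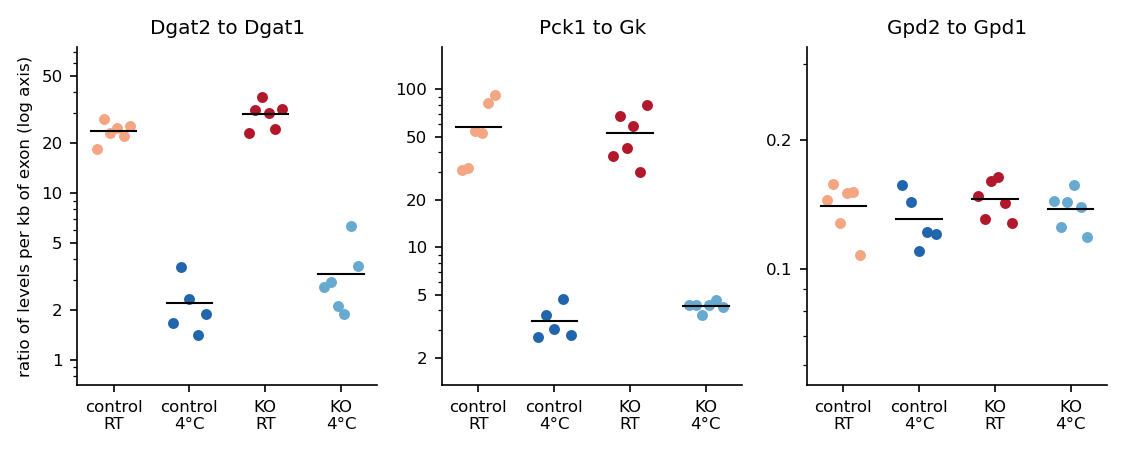
Ratio of levels per kb of exon (log axis) in each mouse for Dgat2 to Dgat1, Pck1 to Gk, and Gpd2 to Gpd1; KO is BAT-Mcu-KO, points are mice and lines are group means. The mean Dgat2 to Dgat1 ratio went from 23.4 to 2.17 in control mice, whereas Gpd2 to Gpd1 stayed between 0.108 and 0.164 in every mouse.

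Genes whose log2 values resembled a member's most were sought among 9531 genes that averaged at least 50 normalized counts. Over the 23 mice, which share the step from RT to 4°C, Gk was most like Lamp2 (Pearson r = 0.981), Scarb2 (0.980), G3bp2 (0.978), Ppargc1a and Mbnl2 (both 0.977). In deviations from the group means, the genes most like Gk were Ppargc1a (0.717), 3110001I22Rik (0.708), Nr4a3 and Pdp2 (both 0.700) and Lamp2 (0.694). Gpam was most like Tmx4, Elavl1 and Hspa4 over the mice (0.978 to 0.987) and Hspa4, Qrich1 and Tmx4 in deviations (0.876 to 0.914). Dgat2 was most like Nlrx1 (0.982), the hormone-sensitive lipase gene Lipe (0.977) and Stat5a (0.976), and in deviations Tmem79, Supv3l1 and Sema4a (0.795 to 0.819).

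For Dgat1 the nearest were Osbpl11 (0.940), Pla2g12a (0.937) and Eng (0.933), and in deviations Osbpl11, Eng and Sp2 (0.780 to 0.847). Eng encodes endoglin, which endothelial cells express. Pck1 was nearest to Lrrc56, Scrn2 and Hsd3b7 (0.920 to 0.923), and in deviations to Cyb561d2, mt-Nd4 and Nadsyn1 (0.756 to 0.788). Agpat2 was nearest to Sfxn5, Zadh2 and Trmt2b (0.893 to 0.903), and in deviations to Fbxw5, Gstm4 and Pdk2 (0.870 to 0.938). Lpin1 was nearest to Glul, Slc43a1 and Rsrc1 (0.852 to 0.895), and in deviations to Glul, Hsd11b1 and Dfna5 (0.722 to 0.753). Gpd1 was nearest to Map2k1, Otop1 and Letmd1 (0.720 to 0.748), and in deviations to Glmp, Letmd1 and Pfkl (0.807 to 0.844). Gpd2 was nearest to Pkm, Acot11 and Pdha1 (0.846 to 0.867), and in deviations to Gbe1, Pkm and Acot11 (0.860 to 0.935), of which Pkm is a glycolytic gene and Gbe1 a gene of glycogen synthesis. These correlations are descriptions over mice that share their scaling.

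Among the 9 genes themselves, deviations from the group means went together most for Agpat2 and Dgat2 (r = 0.745, n = 23, and 0.864 in the 11 mice at 4°C), Gpd1 and Gpd2 (0.653), and Gpd1 and Agpat2 (0.623). In BAT-Mcu-KO mice at 4°C, Agpat2 and Dgat2 were both lowest in replicates 3 and 4 (12042 and 10343 for Agpat2, 5621 and 5857 for Dgat2). Gk and Gpam, which both rose, had r = 0.305 over all 23 mice and 0.908 over the 11 at 4°C, where control replicate 1 was highest in both. Dgat1 and Dgat2 had r = 0.009.

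**Figure D4:**
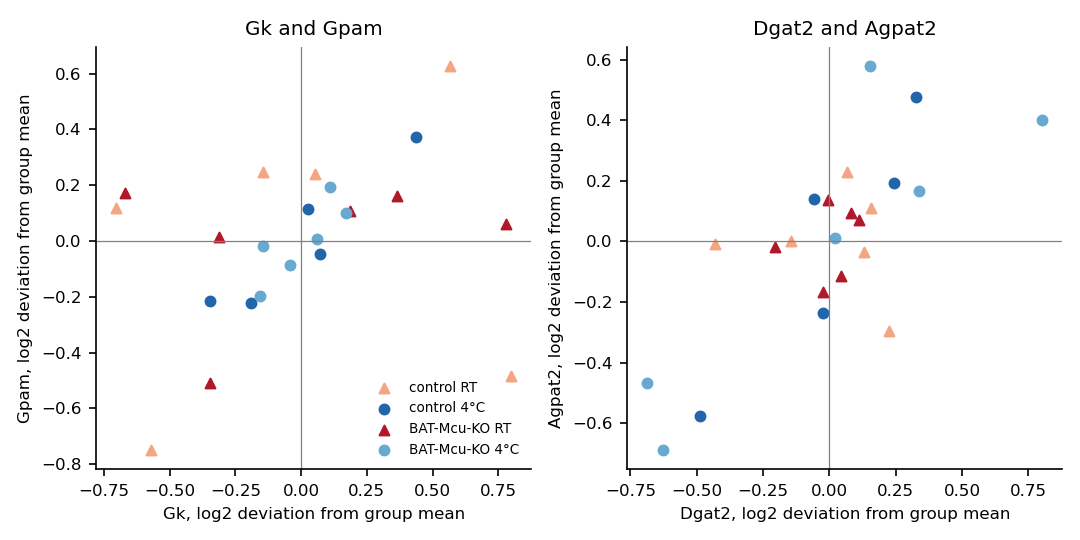
Log2 deviation of each mouse from its group mean, for Gpam against Gk and for Agpat2 against Dgat2; circles are mice at 4°C and triangles mice at RT. For Gk and Gpam the mice at 4°C have r = 0.908 (n = 11) and all 23 mice r = 0.305.

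The other genes of the pathway were taken from 9 lists with 60 genes, of which 54 had values. Cold called 17 of the 54 higher and 15 lower in control mice, and the same numbers in BAT-Mcu-KO mice. Of all genes it called 22.3% and 23.7% in control mice and 21.4% and 21.9% in BAT-Mcu-KO mice. The genotype and the difference in cold response called none of the 54 in limma. An unadjusted p under 0.05 was found for 1 (genotype at RT), 2 (genotype at 4°C) and 3 (difference in cold response) of them. Of all genes, 5.15%, 6.98% and 5.99% had one. The median log2 change of the 54 with cold in control mice was 0.11, against −0.02 for all genes. Values given for these genes are log2 fold changes in control mice, then in BAT-Mcu-KO mice.

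Among the enzymes that feed glycerol 3-phosphate, the Gpd1 relative Gpd1l fell (−1.30 and −1.41), from 358.5 ± 58.9 to 147.6 ± 42.1 normalized counts in control mice. The glycerol channel gene Aqp7 was not called (−0.08 and 0.03, the second turning sign with the scaling), and Aqp3 and Aqp9 had no values. Got1, the cytosolic aspartate aminotransferase, rose from 241.6 ± 49.7 to 1931 ± 236 normalized counts in control mice (3.01, and 2.70 in BAT-Mcu-KO mice), the largest change in its list. Pcx, the pyruvate carboxylase, fell (−0.36 and −0.42), and Pck2, the mitochondrial counterpart of Pck1, was called lower in BAT-Mcu-KO mice (−0.75, adjusted p = 0.000127) but not in control mice (−0.32, adjusted p = 0.0854), with an adjusted p of 0.831 for the difference. Of 4 acyl-CoA synthetases only Acsl4 was called (0.68 and 0.43), and Acsl1, the main isoform of fat cells, had 0.20 and 0.26 without a call, which Acsl1 gained under 2 of 36 alternatives for control and 8 for BAT-Mcu-KO mice.

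Among 8 other acyltransferases of the first steps, 3 rose and none fell in either genotype. These were Lclat1 (1.68 and 1.44), Agpat6 (0.64 and 0.57) and Agpat3 (0.38 and 0.46). Of the lipins and their regulators, Lpin3 rose (1.12 and 0.61) from 60.97 ± 12.3 normalized counts in control mice, and so did Ctdnep1 (0.53 and 0.47) and Cnep1r1 (0.52 and 0.28), the catalytic and regulatory subunits of the phosphatase that acts on lipins. Lpin2 was not called (−0.18 and −0.47), and was called in BAT-Mcu-KO mice under 2 alternatives. Cnep1r1 in BAT-Mcu-KO mice lost its call under 4 of 36 alternatives. Tmem68, which encodes an acyltransferase able to make triglyceride, rose (0.94 and 0.80), whereas the monoacylglycerol acyltransferase genes fell in control mice. Mogat2 went from 28.3 ± 11.2 to 5.98 ± 4.71 normalized counts (−2.23), with only 2 to 11 reads per control mouse at 4°C. The size of its fall ran from −2.57 to −1.26 over the alternatives. Mogat1 fell less (−0.68). In BAT-Mcu-KO mice Mogat2 was called at −1.05 and Mogat1 was not (−0.44, adjusted p = 0.0683), but Mogat2 lost that call under 7 of 34 alternatives and Mogat1 gained it under 5 of 36.

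All 5 genes of triglyceride hydrolysis were called in both genotypes, 1 higher and 4 lower. Abhd5, the activator of adipose triglyceride lipase, rose (0.92 and 0.99). Lipe, the hormone-sensitive lipase, fell from 14425 ± 1204 to 4727 ± 819 normalized counts in control mice (−1.62 and −1.52), as did G0s2, the inhibitor of adipose triglyceride lipase (−1.64 and −1.78), Mgll, which encodes monoacylglycerol lipase (−0.33 and −0.24), and Pnpla2, the adipose triglyceride lipase itself (−0.22 and −0.20). Pnpla2 lost its call under 7 of 36 alternatives for control and 8 for BAT-Mcu-KO mice, and Mgll lost it under 3 in BAT-Mcu-KO mice. Of 9 lipid droplet genes, 4 rose and 3 fell in control mice and 3 and 3 in BAT-Mcu-KO mice. The droplet coat gene Plin2 rose (1.03 and 0.99) and so did Fitm2 (0.64 and 0.62), while Tmem159 (−0.91 and −0.76) and Plin5 (−0.61 and −0.56) fell.

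Of 12 transcriptional regulators, 3 rose and 4 fell in control mice, and 4 and 4 in BAT-Mcu-KO mice. Ppargc1a, a coactivator induced by cold in BAT, rose by 5.10 ± 0.23 on the log2 scale in control and by 4.33 in BAT-Mcu-KO mice. At 4°C control mice had 19302 ± 4383 and BAT-Mcu-KO mice 10675 ± 2190 normalized counts of Ppargc1a, without overlap. The log2 difference was −0.85 ± 0.23 and was not called (adjusted p = 0.284, limma). A lower group without overlap occurred in 0.293% of all genes in that comparison. Gk had means of 23684 and 23343 in these groups, and a link between the 2 genes was not tested. Srebf1, a regulator of fatty acid synthesis, fell (−2.78 and −2.60), as did Cebpa (−2.64 and −2.23). Pparg, the adipocyte nuclear receptor, rose by 0.51 and 0.44.

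**Figure D5:**
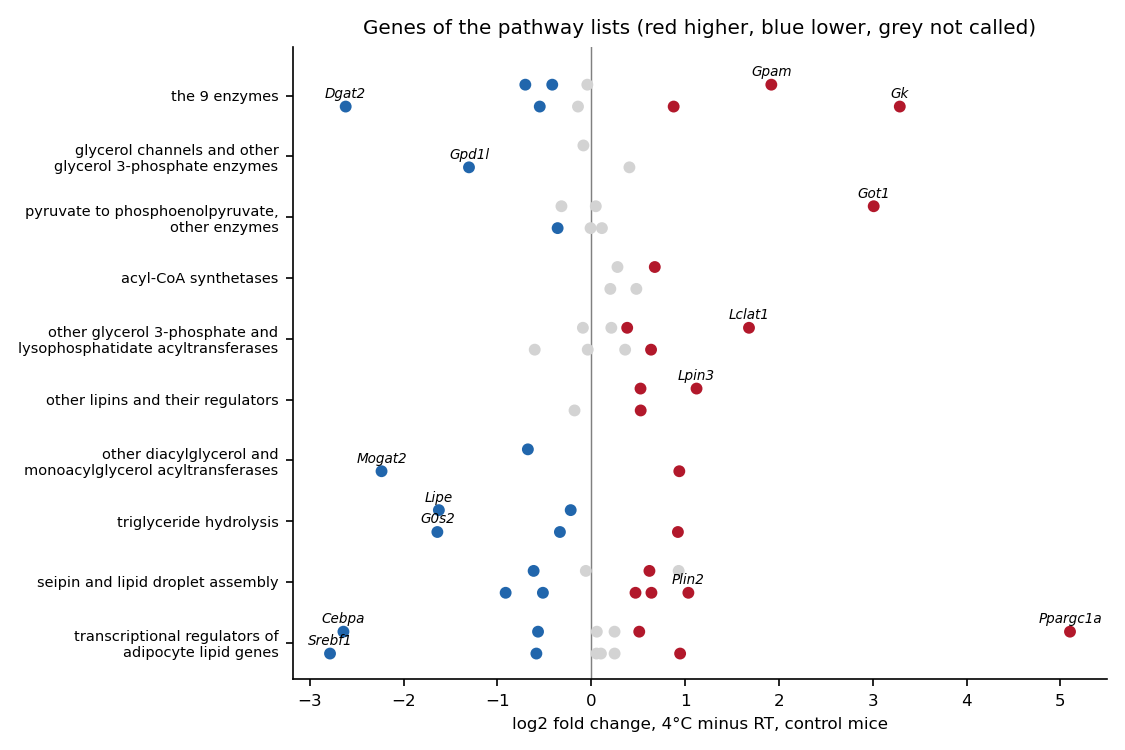
Log2 fold changes from RT to 4°C in control mice for the 9 enzymes and the 54 other genes of the pathway lists, 1 point per gene, grouped by list; red points were called higher, blue lower, grey not called, and genes beyond 1 in either direction are named where called. Calls in both directions occur in most lists, from −2.78 for Srebf1 to 5.10 for Ppargc1a.

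The cold calls of the 9 genes held in number under each alternative processing tried, at 6 or 7 of 9 in control mice and 7 in BAT-Mcu-KO mice. With the log2 sum of the skeletal muscle markers as a covariate, 7 of 9 were called in each genotype. Scaling each library to its 75th percentile moved the median of all genes in control mice to −0.13 and made 38.2% of the calls higher, against 48.5% with the authors' scaling; all 7 calls then kept their direction.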

How the data were processed

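Per the labels, alignment to mm10 was by STAR 2.4.0j and counting by HTSeq. The authors deposited DESeq2-normalized counts, a signal in which each library is divided by its own size factor. They also deposited fold changes and p-values of their own comparisons, not used here. Each column held whole multiples of 1 value (100% within 0.05 reads), which gave back the reads. No column was left out. Log2 of the normalized count + 1 was fitted with limma 3.58.1 (R 4.3.3), with 4 group means over 23 mice and a variance trend, and p-values were adjusted by Benjamini-Hochberg over 14651 genes. DESeq2 1.42.0 and edgeR 4.0.16 on the recovered reads were alternatives, as were other scalings, pseudocounts, filters, a replicate block and leaving out each mouse. Mice are the replicates, and precision is set by 5 to 6 mice per group and 7129271 to 21006347 reads per mouse. Counting ignored strand, per the study's methods. Exon lengths and positions came from GENCODE M21 (GRCm38). The members and lists were chosen with earlier results of these data known. Named were each member, genes of the other lists that were called (at most the 4 with the smallest p in control mice per list), the 3 genes most like each member (5 for Gk), and genes chosen after their values were seen (Aqp7, Acsl1, Lpin2 and Pnpla2). Scripts were tested on simulated data.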

Additional observations from a re-analysis of the deposited data

Results flagged for a closer look

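In 3 of the 64 groups of values examined, 1 mouse lay apart from the others of its group by more than Dixon's 95% limit, where chance gives about 1 in 20. All 3 concern BAT-Mcu-KO RT replicate 4. Its Gpam was the lowest of the group at 1487 normalized counts, the others lying between 2137 and 2384. Its Mcu was the lowest at 15.23 normalized counts, against 36.19 to 42.44. Its ratio of Agpat6 to Gpam per kb was the highest at 4.99, against 3.03 to 3.67, and shares the Gpam value. The causes were not tested.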

How the results depend on the processing

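The 7 cold calls in each genotype kept direction and call under the 36 alternatives per gene, except Agpat2 in control mice (−0.41, adjusted p = 0.0739 without control 4°C replicate 4). Alternatives were run for 30 of the 54 other pathway genes, those named in the text. Of these, Cnep1r1, Mgll, Mogat2 and Pnpla2 lost their BAT-Mcu-KO call under 4, 3, 7 and 8 alternatives, and Mogat1, Acsl1 and Lpin2 gained one under 5, 8 and 2. In control mice Pnpla2 lost its call under 7, and Pck2 and Acsl1 gained one under 3 and 2. The count of all genes called was the value that moved. For genotype at RT it was 7, but 3 when the other groups were left out and 20 with DESeq2. For genotype at 4°C it was 11, but 2 when the other groups were left out, 7 without the variance trend, 6 with edgeR, 23 with DESeq2, and 3 (without control replicate 2) to 16 (without control replicate 1) with a mouse left out. Of the 9 members DESeq2 called 1 there, Pck1. For the difference in cold response it was 0, but 28 with DESeq2, and 0 to 1 among all genes with a mouse left out, the 1 being without control 4°C replicate 1.

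Same-numbered mice were different animals, and r of their deviations was −0.158 to 0.21 as a mean over the 4 pairs of groups. It was not over 0.1 in every pair of mice. Between the genotypes at 4°C it ran from 0.00422 to 0.427, with the mean of 0.21. Whether same-numbered mice shared more than a number was not tested. At 4°C, 2 of 5 control mice correlated best with the BAT-Mcu-KO mouse of their own number. With the replicate number as a block, genotype at 4°C called 7 of all genes, no call of a member changed, and the sign turned for Gk in that comparison (0.07721), for Gpd1 with cold in control mice (0.01041) and for Gpd2 in the difference in cold response (−0.001579), none of them called in any fit.

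Other signs that turned were all of uncalled values near 0 (log2). For genotype at RT, Dgat1 was 0.03633 with the muscle marker sum as a covariate, an alternative chosen after seeing the data, which also gave 0.003382 for Lpin1 in the difference in cold response. For genotype at 4°C, Gk was 0.0277 with 75th percentile scaling. Aqp7 with cold in BAT-Mcu-KO mice was −0.0198 with that scaling, −0.1286 with quantile normalization, and −0.002343 to 0.06382 with a mouse left out. With quantile normalization, Gpd1 with cold was 0.1093 for control and 0.03331 for BAT-Mcu-KO mice, and in the difference in cold response Gpd2 was −0.0336 and Dgat2 −0.08325. In that difference, 75th percentile scaling gave 0.0371 for Gpd1 and 0.01618 for Lpin1, and Gpd2 was −0.01734 with DESeq2 and −0.01636 with edgeR.

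With each mouse left out in turn, genotype at RT ranged from −0.02569 to 0.29 for Gk, −0.08553 to 0.03348 for Gpd2 and −0.09654 to 0.03729 for Dgat1. Genotype at 4°C ranged from −0.08778 to 0.1085 for Gk and −0.09718 to 0.02083 for Gpd2. Cold ranged for Gpd1 from −0.09721 to 0.004851 for control and −0.1338 to 0.03233 for BAT-Mcu-KO mice. The difference in cold response ranged from −0.2912 to 0.0245 for Gk, −0.0918 to 0.07431 for Gpd1, −0.07575 to 0.06371 for Gpd2, −0.1186 to 0.04646 for Lpin1 and −0.1433 to 0.1546 for Dgat2. The causes were not tested.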
